A study of Mus musculus with 40 samples.

Results

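Day 3 of adipogenic induction was examined in cells that lack the nucleosome-binding proteins HMGN1 and HMGN2 and in wild-type cells. The comparison rests on 6 of the 24 H3K27ac ChIP-seq libraries with peak lists in a series of 40 samples. The wild-type (WT) group was 3 libraries from C57BL/6 mice of the genotype "Wild type". The double-knockout (DKO) group was 3 libraries of the genotype "Hmgn1-/- and Hmgn2-/-", from mice that the study lists as a C57BL/6 congenic stock (B6.Cg). Whether the groups differ elsewhere in the genome was not tested. Both groups were preadipocytes from the subcutaneous inguinal fat of adult male mice, and at day 3 both were still in the induction medium, which holds insulin at 0.5 µg/ml, dexamethasone at 5 µM, IBMX at 0.5 mM, T3 at 1 nM and rosiglitazone at 1 µM and is used for 4 days. The WT cells carry neither deletion, and no agent was given to only 1 of the groups. Replicates are biological ones according to the study's methods, and which animals gave which culture is not given in the sources used here. The 16 input libraries of the series, 2 per genotype and day, were not analysed here. Joining peaks of the 6 lists from 1 bp of overlap gave 119248 merged regions, and a library is said to call a region when its list holds a peak there.

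H3K27ac is an acetylation of histone H3 found at active promoters and enhancers. A peak of it marks a stretch of chromatin that is in use in a culture, though not whether the neighbouring gene is transcribed. HMGN1 and HMGN2 bind nucleosomes throughout the genome, preferentially at promoters and enhancers in open chromatin, where they compete with linker histone H1. In adipogenic induction, glucocorticoid and cAMP signals act first, through C/EBPβ and AP-1 factors, and C/EBPα and PPARγ then maintain the fat cell programme. Rosiglitazone, a PPARγ agonist, and T3, a thyroid hormone, favour brown-like cells from white precursors. In bulk chromatin, fewer cells that carry the mark at a region and less mark per cell cannot be told apart.

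The targeted genes were looked at first. Hmgn2 (chr4:133964738-133968650, minus strand) held 1.59, 1.4 and 1.5 kb under peaks in the 3 WT libraries, counted over the gene body and the 5 kb before it, and 0 kb in all 3 DKO libraries. This is what the labels give, and it was so in all 3 DKO libraries of days 0, 6 and 9 as well. Hmgn1 on chromosome 16 kept its peaks, with 1.71, 2.19 and 1.49 kb in WT and 1.25, 1.68 and 1.14 kb in DKO. Which part of either gene is deleted is not given in the sources used here, so a peak at the start of Hmgn1 checks nothing about its loss.

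The labelled cell type was checked against its markers. The preadipocyte genes Pdgfra, the PDGF receptor alpha, and Ly6a (Sca-1) held peaks in all 6 libraries, with 8.75 to 12.6 kb for Pdgfra and 3.85 to 5.12 kb for Ly6a, whereas Dlk1, an inhibitor of adipogenesis, held none. Cd34, a further preadipocyte marker, held a peak in 1 WT library and in 3 DKO libraries. Of the fat cell markers, Pparg, Cebpa, Fabp4, Lpl and Cd36 held peaks in all 6 libraries, and Plin1, which coats lipid droplets, in 5 of them. Adipoq, which encodes adiponectin, and the brown fat genes Ucp1 and Elovl3 were at 0 in all 6 lists. The brown fat gene Cidea held 0, 0.165 and 0 kb in WT and 0.155, 0.234 and 0.216 kb in DKO, too little for a test. All 10 immune markers of the list passed the minimum of 0.2 kb for a test, and their summed length was 27.8 to 41.4 kb per WT library and 36.4 to 48.3 kb per DKO library. The summed lengths of the mural, Schwann, mesothelial and skeletal muscle markers were between 0.786 and 3.30 kb per library, and those of the endothelial markers between 2.78 and 7.5 kb. Of the 6 epithelial markers, Epcam, Krt8, Krt18, Krt5 and Krt14 were at 0 throughout, and the summed length of the list was 0 to 0.404 kb.

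WT replicate 3 stood apart in depth. Its lowest shared background was 0.723 reads, against 1.46 to 1.67 reads in the other 5 libraries. These reads were recovered from the fold and the p-value of each peak. In the 32720 regions called in all 6 libraries, the median number of reads at the summit was 34, 34 and 17 in WT and 24, 28 and 24 in DKO. The DKO libraries and the other 2 WT libraries also differed in these summit reads, by less. Their lowest shared backgrounds were closer, at 1.67 and 1.66 reads in WT and 1.62, 1.61 and 1.46 in DKO. Quantile normalization in the fits of fold and reads below removes a difference that a whole library shares. The counts of regions and genes below are also given without WT replicate 3 and with equal numbers of peaks. The overlap of library pairs, the location of the region sets and the motif shares were not recomputed in that way.

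The lists held 91567, 95852 and 68629 peaks in WT and 64777, 82585 and 69105 in DKO, that is 85349 ± 14638 against 72156 ± 9288 (SD, n = 3). The groups overlapped, and the exact permutation test, two-sided, gave p = 0.3, where 3 against 3 libraries cannot go below 0.1. Peaks covered 44.6 ± 11.8 Mb in WT and 34.9 ± 6.19 Mb in DKO (exact p = 0.3). Without WT replicate 3, every DKO library lay below both remaining WT libraries, with mean differences of -21554 peaks and -16.4 Mb (exact p = 0.2 for both, 2 against 3 libraries). At an equal number of 64777 top peaks per library, the covered length was 39.2 ± 7.82 Mb against 33.1 ± 3.87 Mb (exact p = 0.3). The promoter share, counted as peaks no more than 1 kb away from any transcript start, was 29.7 ± 3.89% in WT and 33.5 ± 2.97% in DKO (exact p = 0.2). That difference of 3.89 percentage points was 6.11 without WT replicate 3, with no overlap, and 0.82 at the equal number of top peaks.

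**Figure D1:**
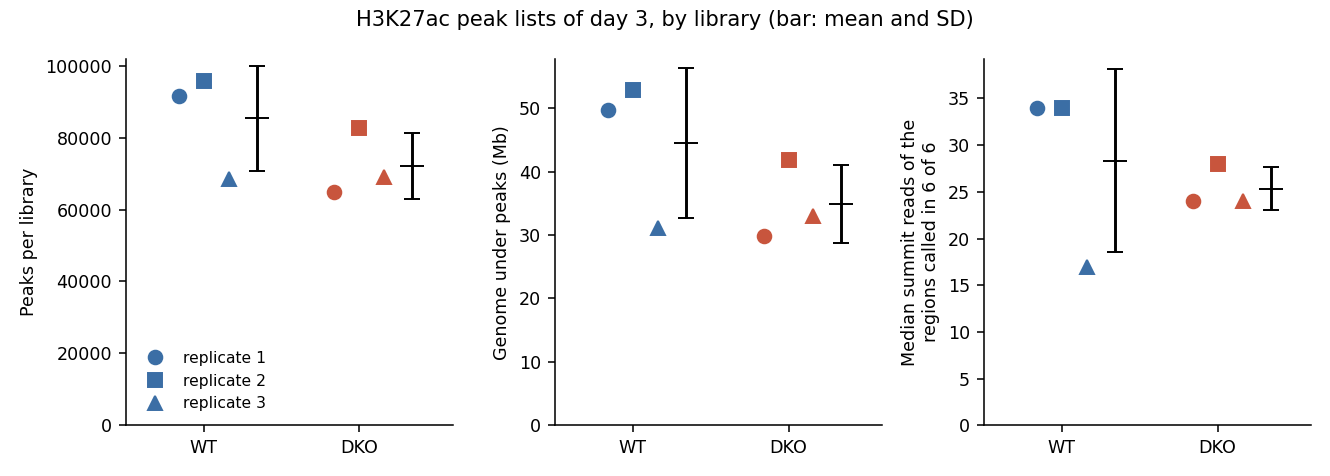
Peaks per list, Mb under peaks and the median reads at the summit in regions called in 6 of 6 libraries, for each of the 3 WT and 3 DKO libraries of day 3, with points for libraries and bars for the mean ± SD. WT replicate 3 lies below the other WT libraries in all 3 panels, and below every DKO library only in summit reads, with 17 against 24 to 28.

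The share of regions that libraries had in common ran over overlapping ranges within and between genotypes. Of the regions called in either member of a pair, 50.6 to 63.0% were called in both within a genotype (6 pairs) and 48.8 to 57.3% between genotypes (9 pairs). WT replicate 3 shared 50.6 and 52.9% with the other WT libraries and 53.8 to 56.7% with the DKO libraries. This share also depends on the lengths of the lists, so it does not show to which genotype that library was nearer. WT replicate 3 called 52370 regions, the other WT libraries 79025 and 84241, and the DKO libraries 48605 to 67058. Of the 119248 regions, 32720 (27.4%) were called in all 6 libraries, 29086 in 1 WT library only and 11887 in 1 DKO library only.

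All 3 WT libraries and 0 of the DKO libraries called 2312 regions, or 1.94% of the total. The reverse held for 321 regions, or 0.269%. These are named WT-only and DKO-only regions here, for the 6 lists of this day. The excess on the WT side depended on how many peaks entered: 9109 against 380 without WT replicate 3, 1442 against 738 with 64777 top peaks per library by the −log10 of the q-value, 1175 against 534 with the same number ranked by summit reads, and 401 against 277 with 20000 top peaks. The WT-only side remained the larger at each of these settings, and its ratio fell with equal lists.

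Both sets lay mostly outside promoters and were weaker than shared regions. Of the WT-only regions, 13.9% lay within 1 kb of a transcript start, 42.6% in introns and 40.1% between genes. For the DKO-only regions these shares were 11.2%, 47.4% and 37.7%, whereas 50.7% of the regions called in all 6 libraries were at promoters. Over all 119248 regions the same shares were 23.0%, 42.5% and 30.9%. The median summit held 16, 16 and 10 reads for WT-only regions in the 3 WT libraries and 14, 15 and 13 reads for DKO-only regions in the 3 DKO libraries.

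The region with the highest −log10 q on the WT side lay 2.26 kb upstream of Galnt9, at chr5:110541279-110542913, and 2 more of the 10 highest lay at this gene, inside it at chr5:110601238-110601875 and beyond its end at chr5:110628629-110629834. Galnt9 encodes an enzyme that starts O-linked glycosylation in the Golgi apparatus. The third of the 10 lay at alternative starts inside Hmgn2, at chr4:133966345-133967282. On the DKO side the highest was an intergenic region 23.1 kb from the start of Depdc1b, at chr13:108292495-108294046. To show what these regions are, 201 bases around the strongest summit are printed for the region upstream of Galnt9, the Hmgn2 region and the Depdc1b region. The same is printed for a region inside Galnt9 with fewer reads in DKO and for 2 intergenic regions with more. These last were called in both genotypes and are described further on. The sequence is from RefSeq GRCm38, plus strand, 5′ to 3′, with capitals for the 11 bases centred on the summit.
Galnt9 upstream, WT-only, chr5:110541352-110541552: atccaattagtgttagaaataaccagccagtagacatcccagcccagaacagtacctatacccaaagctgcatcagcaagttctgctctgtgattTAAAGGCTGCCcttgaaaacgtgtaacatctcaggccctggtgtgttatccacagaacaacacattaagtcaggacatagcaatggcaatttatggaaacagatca
Galnt9 body, fewer reads in DKO, chr5:110604177-110604377: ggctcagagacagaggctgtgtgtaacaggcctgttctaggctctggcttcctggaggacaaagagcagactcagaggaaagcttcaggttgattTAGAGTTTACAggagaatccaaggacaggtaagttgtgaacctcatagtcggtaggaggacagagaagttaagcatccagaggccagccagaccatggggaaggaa
Hmgn2, WT-only, chr4:133967029-133967229: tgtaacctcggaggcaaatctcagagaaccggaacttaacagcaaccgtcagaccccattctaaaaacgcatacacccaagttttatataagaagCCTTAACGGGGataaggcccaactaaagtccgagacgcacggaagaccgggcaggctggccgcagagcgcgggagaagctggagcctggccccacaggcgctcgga
Depdc1b, DKO-only, chr13:108293398-108293598: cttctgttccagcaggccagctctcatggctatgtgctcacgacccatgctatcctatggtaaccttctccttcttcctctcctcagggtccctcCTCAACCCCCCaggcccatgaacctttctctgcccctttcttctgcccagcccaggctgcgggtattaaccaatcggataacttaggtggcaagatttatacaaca
Apoc4, more reads in DKO, chr7:19684186-19684386: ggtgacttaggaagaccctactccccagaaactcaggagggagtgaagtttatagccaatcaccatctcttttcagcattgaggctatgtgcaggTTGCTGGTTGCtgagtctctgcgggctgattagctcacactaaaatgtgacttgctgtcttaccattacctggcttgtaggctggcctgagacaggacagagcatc
Cpeb3, more reads in DKO, chr19:37264321-37264521: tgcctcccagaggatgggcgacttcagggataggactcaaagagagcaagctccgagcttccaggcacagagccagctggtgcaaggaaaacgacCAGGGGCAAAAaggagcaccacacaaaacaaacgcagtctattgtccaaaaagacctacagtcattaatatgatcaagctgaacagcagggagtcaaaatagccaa

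The 201-base windows of these 6 summits hold none of the searched motifs, which says only that those letters are not in these windows. At the first Galnt9 window, summit reads were 45, 42 and 20 in WT, with no peak in DKO. At the region beyond the gene's end they were 37, 50 and 21 in WT, and at the intronic one 37, 39 and 16. The Hmgn2 region held 48, 37 and 16 reads in WT. At the Depdc1b region the 3 DKO libraries held 34, 43 and 41 reads, more than at any of the other 9 highest DKO-only regions, where a library held 12 to 26. The shallow WT replicate 3 was the lowest WT library at each of these WT-only regions and still had a call there.

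The other 6 of the 10 highest WT-only regions were at the starts of Adh7, an alcohol and retinol dehydrogenase, and Specc1l, a cytoskeletal protein, and at long distance from Nmur2, Gria1, Mast4 and Prrx1. Prrx1 encodes a homeobox factor of mesenchymal precursors, and the region lay 74.3 kb from its start with 30, 30 and 10 reads. The other 9 of the 10 highest DKO-only regions were nearest to Gm5678, Kcnj3, Agap1, Ceacam18, Egfr, Fndc7, Rpn1, Mrtfb and Vmp1. One of them lay in an intron of Egfr, the epidermal growth factor receptor, with 20, 14 and 19 reads in DKO.

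The libraries of days 0, 6 and 9 had no part in choosing these sets, so they were used as a separate look at them. Of the WT-only regions, 51.3 ± 3.56% were called in a WT library of day 0 and 50.3 ± 9.53% in a DKO library (SD, n = 3), which did not differ beyond their spread (exact p = 0.9). Without DKO day 0 replicate 2, a library with wide peaks, that difference was -5.59 percentage points instead of -0.98. At day 6 the values were 74.6 ± 3.05% and 23.3 ± 10.2% without overlap (exact p = 0.1, the smallest possible), beside 61.6% and 36.3% of all 119248 regions in the same libraries. At day 9 they were 68.7 ± 8.41% and 69.0 ± 2.68% (exact p = 1). The ranges of the genotypes overlapped at days 0 and 9, and at day 6 the gap came with fewer calls of all regions in the DKO libraries, whose part in it was not tested.

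The DKO-only regions showed another order. At day 0 they were called in 51.9 ± 4.41% of cases in WT and 71.2 ± 7.30% in DKO, and at day 9 in 30.7 ± 4.59% and 45.7 ± 1.09%, without overlap at either day (exact p = 0.1 for both). All 119248 regions were called in 56.1% (WT) and 59.8% (DKO) of cases at day 0 and in 58.9% and 62.7% at day 9, with overlap on both days. At day 6 the order was turned, with 35.2 ± 3.59% in WT and 20.5 ± 8.04% in DKO (exact p = 0.1). The wide peaks of DKO day 0 replicate 2, whose median width was 1076 bp, overlap more regions, and without that library the day 0 difference was 16.6 percentage points instead of 19.3. With 64777 top peaks per day 3 library, the day 6 difference was -4.52 points with overlap (exact p = 0.5).

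**Figure D2:**
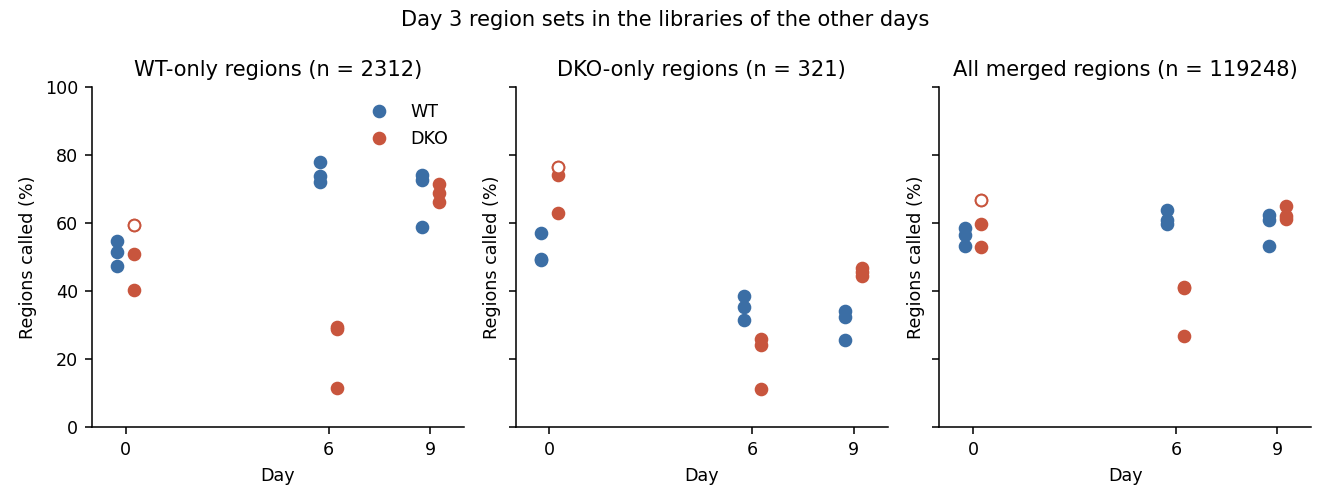
Percentage of WT-only regions, DKO-only regions and all merged regions of day 3 that were called in each library of days 0, 6 and 9, by genotype, with 1 point for each library. DKO-only regions were called more often in DKO at days 0 and 9. WT-only regions overlapped between genotypes on those days, and all 3 sets were lower in DKO at day 6. The open circle is the DKO day 0 library with wide peaks.

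Calls ask only whether a peak passed a threshold. In the 32720 regions called in all 6 libraries the height of the peak could be compared, as the fold enrichment over the local background that the lists give. limma, with trend, on the quantile-normalized log2 fold found 945 regions lower in DKO (2.89% of those tested) and 914 higher (2.79%) at a Benjamini-Hochberg adjusted p under 0.05. Without normalization between libraries the same fit gave 3022 lower and 225 higher. The fold is a ratio, and its 2 terms were then taken apart. For all background values below, the background was divided by the lowest shared background of its library. In 936 of the 945 regions with a lower fold the local background was higher in DKO, with a median log2 difference of 0.85, while the summit reads differed by a median of -0.20. In 907 of the 914 regions with a higher fold the background was lower in DKO, with a median of -0.89, and summit reads differed by 0.25. The background term moved opposite to the fold in nearly all of the called regions and by more than the reads did. The choice by fold favours this, because the background is a term of the fold. Summit reads were lower in DKO in 791 of the 945 regions and higher in 819 of the 914. Over all 32720 regions they were lower in 16564 and higher in 16156, after quantile normalization, which makes the distributions of the libraries equal.

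The peak at the start of Cmtm6, a membrane protein that stabilises PD-L1, was the clearest case. Its fold was 15.6, 18.5 and 15.3 in WT and 3.09, 4.14 and 5.32 in DKO, a log2 difference of -1.82 ± 0.22 (SE, limma adjusted p = 7.66e-05). The summit reads were 51, 55 and 28 in WT and 31, 36 and 35 in DKO. The local background, relative to each library's lowest, was 1.40, 1.23 and 1.23 in WT against 5.78, 4.94 and 3.95 in DKO. The reads overlapped between genotypes, and the background of every DKO library was above that of every WT library. At the start of Ap2m1, a subunit of the clathrin adaptor, the order was opposite. There the fold was higher in DKO by 1.47 on the log2 scale and the background lower by a log2 difference of -1.58, with summit reads of 74, 71 and 35 in WT and 66, 79 and 69 in DKO.

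The local background was a property that libraries of a genotype shared. Across the 32720 regions it correlated at r = 0.64 to 0.68 between libraries of one genotype and at 0.18 to 0.20 between genotypes. Summit reads correlated at 0.84 to 0.89 within and 0.81 to 0.86 between genotypes, and the fold at 0.80 to 0.84 within and 0.71 to 0.73 between. These are correlations over regions, which are not independent replicates. Which input library served as control for which list is not given in the sources used here, so a difference of the chromatin and a difference of the control cannot be told apart.

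The regions called by the fold alone were also followed to the other days. Of the 938 regions with a lower fold that reads did not call, those measured in all 6 libraries of a day had a lower fold in DKO in 55.3% of cases at day 0, 51.5% at day 6 and 54.1% at day 9. Over all shared regions of day 3 those shares were 54.1%, 45.9% and 51.1%. Of the 903 with a higher fold, 49.5%, 56.5% and 51.1% were higher, against 45.9%, 54.1% and 48.9% over all. Each of these shares lay above that of all shared regions on its day. By summit reads, 584 of 838, 426 of 776 and 524 of 909 of the fold-lower regions were lower in DKO at days 0, 6 and 9. Over all shared regions these were 16722 of 28381, 10650 of 23129 and 15426 of 29626. Of the fold-higher regions 391 of 857, 450 of 708 and 418 of 796 were higher, against 11659, 12479 and 14200 over all. None of these differences was tested.

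**Figure D3:**
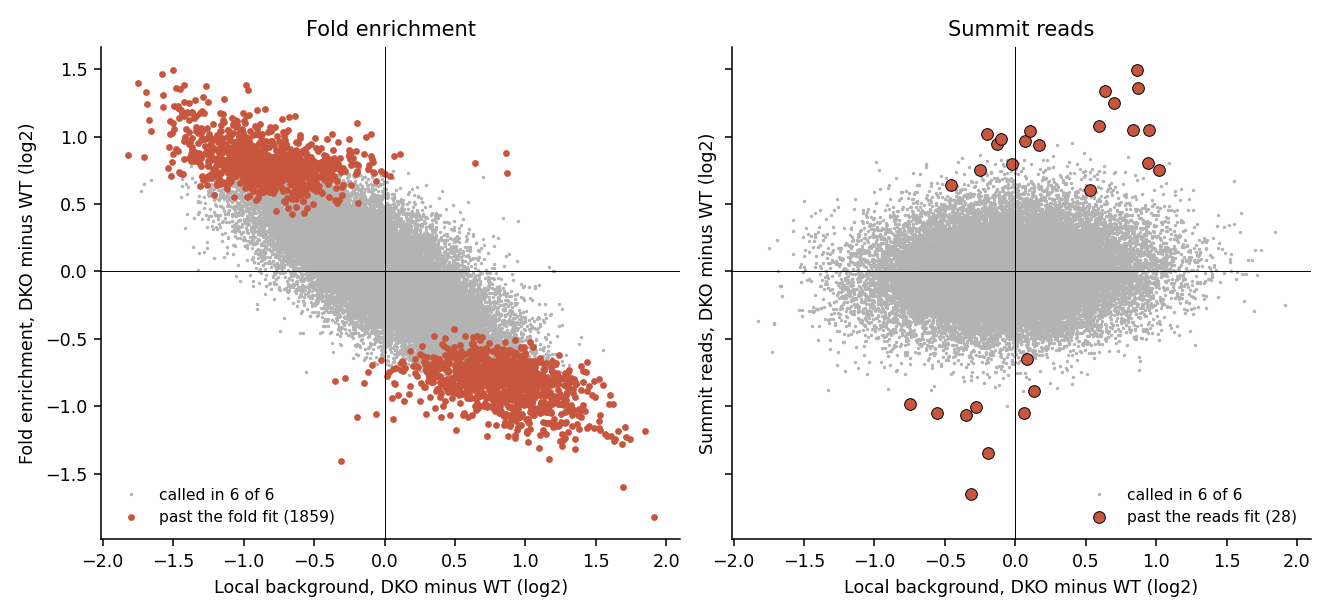
Log2 difference, DKO minus WT, of fold enrichment (left) and of summit reads (right) against that of the local background, for the 32720 regions called in 6 of 6 libraries of day 3. The background is relative to the lowest shared background of each library. Coloured points passed the limma threshold, 1859 by fold and 28 by reads. Fold calls run opposite to the background, with a median background difference of 0.85 where the fold was lower and -0.89 where it was higher. The background is a term of the fold that chose these points.

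Summit reads were then tested in place of the fold, by the same limma fit on quantile-normalized log2 reads. In DKO 9 regions were lower (0.0275% of 32720) and 19 were higher (0.0581%), and 7 and 11 of them also passed in the fold fit with the same direction. All 28 kept their direction at each of the settings in which they could be measured, but most calls needed all 6 libraries. Without WT replicate 3, 17 of the 28 still passed, and without DKO replicate 3 only 9 did. When each library was left out in turn, 8 of the 28 passed every time: Gm8113, the Galnt9 region at chr5:110601982-110604441, the 2 Dynlt1b regions with the larger differences, H2-T23, Fgfbp3, and at Btaf1 and Cpeb3 the region with more reads. The other 20 were lost in at least 1 of these fits. Without normalization between libraries, where reads of the shallow library enter as they are, 0 passed.

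Of the 9 regions with fewer reads in DKO, 2 lay inside Galnt9 (chr5:110544355-110621380). The one at chr5:110601982-110604441, where the gene has an internal transcript start, held 50, 63 and 32 summit reads in WT and 16, 21 and 16 in DKO, a log2 difference of -1.34 ± 0.18 (SE, limma adjusted p = 6.5e-05). Its intronic neighbour at chr5:110604679-110605970 held 58, 51 and 26 in WT and 23, 20 and 16 in DKO, a log2 difference of -1.05 ± 0.18 (limma adjusted p = 0.0053), a call lost without WT replicate 1, DKO replicate 2 or DKO replicate 3. Together with the WT-only region at chr5:110601238-110601875 they form 1 stretch in the body of the gene that was weaker in DKO. The background of the pair was close to even, with a median log2 difference of -0.07, and the 47 shared regions within 1 Mb on either side had a median reads difference of 0.00.

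The largest difference of the 9 was at the start of Gm8113, at chr14:43925199-43925637, with 57, 55 and 29 reads in WT and 13, 19 and 11 in DKO, a log2 difference of -1.65 ± 0.19. This locus holds near-identical gene copies, so the position of its reads is uncertain. Inside Myrip, which links Rab27-bearing vesicles to myosin, an intronic region at chr9:120360201-120361874 held 49, 52 and 20 reads in WT and 17, 21 and 14 in DKO, a log2 difference of -1.05 ± 0.19 (limma adjusted p = 0.0079), a call lost without WT replicate 1, WT replicate 2 or DKO replicate 3. In Il22ra2, a soluble receptor that binds interleukin 22, an intronic region held 34, 38 and 19 reads against 14, 19 and 11 (log2 difference -0.98). The start of Gpbp1, a promoter-binding transcription factor, held 92, 92 and 65 against 51, 59 and 41 reads (log2 difference -0.65), and its call was lost whichever library was left out, with median centring and with the replicate block. The last 3 were intergenic, 187 kb from the start of Tapt1, 147 kb from Chic2 and 159 kb from Nrep, with log2 differences of -1.0, -0.89 and -1.06.

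Of the 19 regions with more reads in DKO, 12 lay in 3 short stretches of the genome. The longest was on chromosome 19, chr19:36917644-37376267, from Fgfbp3, an FGF-binding protein, over Btaf1, a regulator of the TATA-binding protein, and Cpeb3, an mRNA-binding protein, to Kif11, a mitotic kinesin. It holds 13 shared regions, of which 6 passed the reads fit and 9 had every DKO library above every WT library once each was divided by its library's median. At Fgfbp3 the reads were 25, 31 and 14 in WT and 51, 62 and 48 in DKO, a log2 difference of 1.33 ± 0.16 (SE, limma adjusted p = 2e-05). At the start of Btaf1 they were 53, 55 and 24 against 74, 89 and 82, a log2 difference of 1.05 ± 0.13 (limma adjusted p = 2.2e-05). The DKO reads were the higher ones at both without any overlap, even before depth was taken into account for Btaf1 and Fgfbp3.

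Over the 13 regions the median log2 reads difference was 0.75, and the background was higher too, by 0.40, so that the fold differed by 0.39 only. The 31 shared regions within 1 Mb on either side had a median reads difference of 0.01 and a background difference of 0.18. At the Kif11 region the reads were 74, 76 and 25 in WT and 77, 101 and 76 in DKO (log2 difference 0.75, limma adjusted p = 0.012) while the fold differed by -0.12, and the reads call was lost without WT replicate 3 or any 1 DKO library. Reads and background were both higher over most of this stretch, and the fold, their ratio, was nearer to even. Ide, an insulin-degrading protease named by the study, lies in this part of the chromosome and was at 0 in all 6 lists.

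The second stretch was chr17:6429203-6477139, where 3 regions at and downstream of Dynlt1b, a dynein light chain, differed by 1.08, 1.49 and 1.36 on the log2 scale. The strongest of them, at chr17:6430161-6431450, held 31, 27 and 13 reads in WT and 56, 56 and 68 in DKO. The background was also higher, by 0.60 to 0.87. Dynlt1b is one of several near-identical copies on this chromosome, and the assignment of these reads to 1 copy is uncertain. The third was chr7:19683968-19695718 at Apoc4 and Apoc1, which encode apolipoproteins of triglyceride-rich lipoproteins, with 3 regions at 0.95, 0.80 and 0.75. At Apoc4 the reads were 25, 29 and 14 in WT and 33, 51 and 37 in DKO, and here the background was not raised (median log2 difference -0.13), so fold and reads gave the same call.

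The other 7 regions with more reads in DKO stood alone. They lay at the starts of H2-T23, a non-classical MHC class I gene (log2 difference 1.25), Hacd2, which acts in the elongation of very long fatty acids (0.99), Dennd4b, a Rab exchange factor (0.64), and Hjurp, the chaperone of the centromeric histone (0.60), in an exon of Rbm47 (1.02), and between genes near Metrnl, which encodes a secreted factor of fat and muscle (0.94), and B430305J03Rik (0.96). At Hacd2 the reads were 24, 22 and 11 in WT and 32, 37 and 33 in DKO, without overlap, though its call was lost whichever library was left out. At H2-T23, which has close relatives in the MHC, they were 20, 20 and 9 against 37, 40 and 28. At Hjurp the raw reads overlapped, with 110, 90 and 54 against 104, 133 and 120, and only the values relative to each library were apart.

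**Figure D4:**
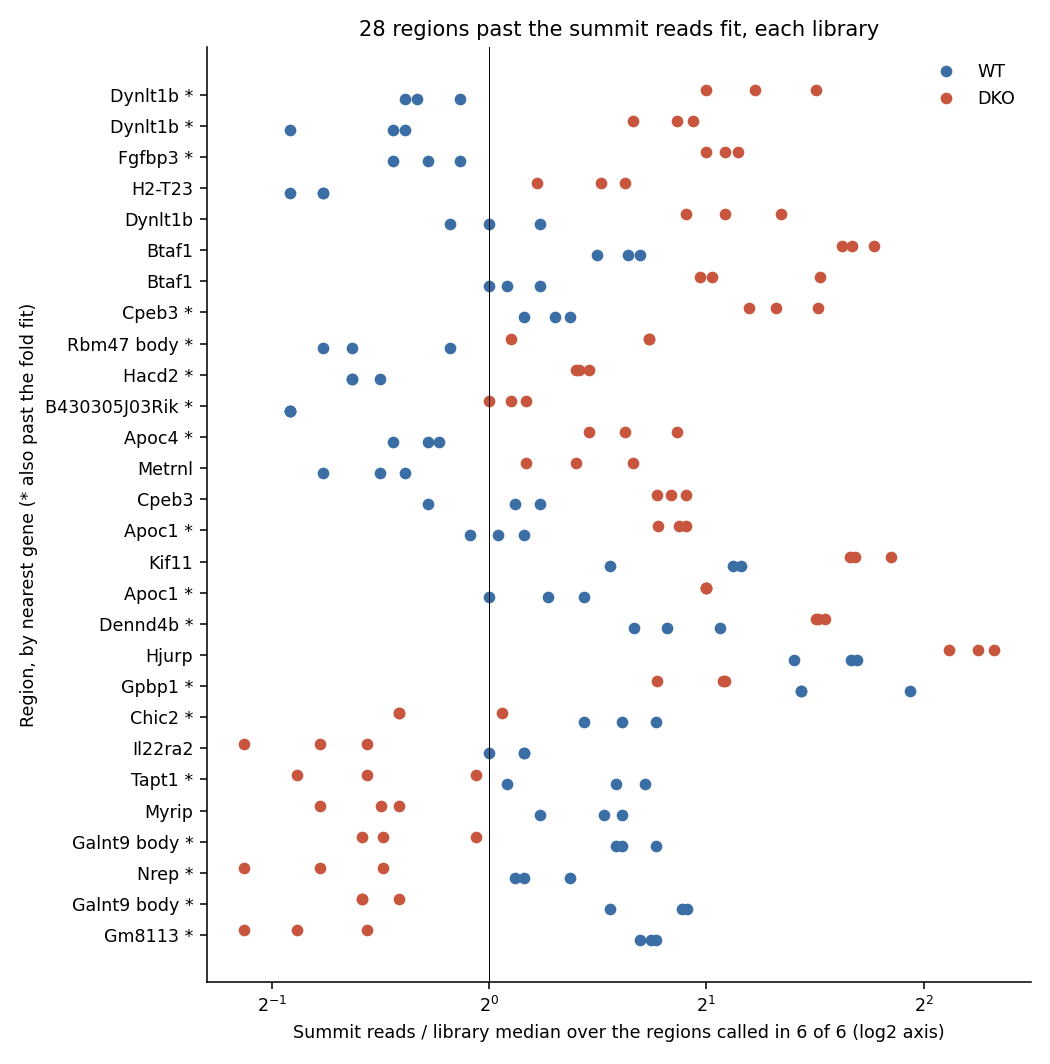
Summit reads divided by the library's median for the 28 regions past the reads fit at day 3, 9 lower and 19 higher in DKO, with a point for each of the 3 WT and 3 DKO libraries on a log2 axis. A star marks the 18 regions that also passed the fold fit. Regions are sorted by their log2 difference, from Gm8113 at -1.65 at the bottom to Dynlt1b at 1.49 at the top.

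The regions called by reads were followed to the other days in the same way. Of the 19 higher regions, 19 of 19 measured at day 0, 18 of 18 at day 6 and 15 of 16 at day 9 had more reads in DKO, with median log2 differences of 0.54, 0.80 and 0.75. Of the 9 lower regions, 6 of 6 at day 0, 5 of 6 at day 6 and 6 of 9 at day 9 had fewer. Over all shared regions measured on those days, 16722 of 28381, 10650 of 23129 and 15426 of 29626 had fewer reads in DKO. Those libraries were not used to choose the regions. In the Dynlt1b stretch the 3 regions differed by 1.15 to 1.71 on days 0, 6 and 9, and at Fgfbp3 by 1.17, 1.59 and 1.34.

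A number of the 28 were close to even on other days. The Myrip region was called in 1 WT and 0 DKO libraries of day 0 and differed by 0.38 at day 6 and 0.05 at day 9. The Il22ra2 region differed by -0.02 and 0.08 on those days, the Nrep region by -0.41 and 0.05, and Dennd4b by 0.04, 0.07 and 0.14 at days 0, 6 and 9. At day 0 Hacd2 differed by 0.09, Metrnl by 0.06, the Rbm47 exon by 0.10, B430305J03Rik by 0.08 and the intergenic Apoc1 region by 0.03. At day 9 Hacd2 differed by 0.05 and Metrnl by -0.17, and Gpbp1 differed by -0.03 at day 6. Whether the difference itself changed with the day was not tested for single regions. The Galnt9 region at chr5:110601982-110604441 differed by -1.27 at day 0 and -1.36 at day 9, and at day 6 it was called in 3 WT and 1 DKO libraries.

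For genes, kb under peaks were summed in each library over the gene body and its 5 kb of upstream sequence. Of 21884 annotated genes, 13018 had a mean of at least 0.2 kb and were tested with limma on log2 of the kb plus 0.2. In DKO 3 genes passed as lower (0.023%) and 0 as higher, where 1316 and 47 had an unadjusted p under 0.05. The median log2 difference of all genes tested was -0.19, so the whole distribution lay toward fewer kb in DKO, and after centring each library on its median 87 genes passed as lower and 14 as higher. The values of DKO lay below every WT value for 1541 genes (11.8%) and above every WT value for 117 (0.899%). Without WT replicate 3 the first count was 7476 (57.4%), and at equal numbers of top peaks the counts were 1770 (13.6%) and 330 (2.53%).

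The 3 genes were Rspo3, Pnp2 and Hmgn2. Rspo3 (chr10:29452416-29535867), a secreted protein that strengthens Wnt signals, held 2.51, 2.23 and 1.84 kb in WT and 0.155, 0 and 0 kb in DKO, a log2 difference of -3.30 ± 0.29 (SE, limma adjusted p = 0.011). Pnp2 (chr14:50955992-50964749), a purine nucleoside phosphorylase, held 2.58, 3.53 and 2.08 kb in WT and 0.26, 0.294 and 0.308 kb in DKO, a log2 difference of -2.56 ± 0.21 (limma adjusted p = 0.011). Hmgn2 itself differed by -3.08 ± 0.27 (limma adjusted p = 0.011). DKO fell below WT without overlap in all 3 genes, and the calls of all 3 were lost when WT replicate 1 or 2 was left out, which leaves 2 WT libraries with the shallow one among them. Pnp2 has a near copy, Pnp, next to it, and its reads may be split between them.

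Galnt9, which held the strongest WT-only region, held 15.8, 15.8 and 12.4 kb in WT and 4.19, 4.76 and 3.07 kb in DKO, or 14.7 ± 1.98 against 4.01 ± 0.863 kb (SD, n = 3). Its log2 difference of -1.83 ± 0.23 had a limma adjusted p of 0.11, which became 0.0084 with equal numbers of top peaks and 0.019 without WT replicate 3. When the log2 summit reads of the shared regions of a gene were averaged, Galnt9 passed over its 4 regions (log2 difference -0.99 ± 0.10, limma adjusted p = 0.0058 over 11961 genes). By that measure Gm8113 was also lower, and Kif11, Apoc1, Apoc4, Gm44805, Btaf1, Fgfbp3, H2-T23 and Dynlt1b were higher.

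The day 3 pattern of these genes was set beside the other days. Galnt9 held 12.8 to 13.9 kb (WT) and 5.85 to 9.35 kb (DKO) at day 0, 13.1 to 15.9 against 0.229 to 1.81 kb at day 6, and 15.7 to 19.2 against 7.05 to 9.64 kb at day 9, so the genotypes were apart on every day. Pnp2 was also apart on every day, with WT libraries at 1.89 to 3.63 kb over days 0, 6 and 9 and DKO libraries at 0 to 0.873 kb. Rspo3 overlapped at day 0, at 1.19 to 1.69 kb for WT and 0 to 1.36 kb for DKO, where the highest DKO value came from the library with wide peaks. Wnt5a, a non-canonical Wnt ligand, went from 4.65, 4.58 and 2.56 kb in WT against 1.47, 1.49 and 0.941 kb in DKO at day 3 to 2.07 to 2.41 against 3.39 to 3.88 kb at day 9. The order of the genotypes at Wnt5a was thus turned between day 3 and day 9, without overlap at either.

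**Figure D5:**
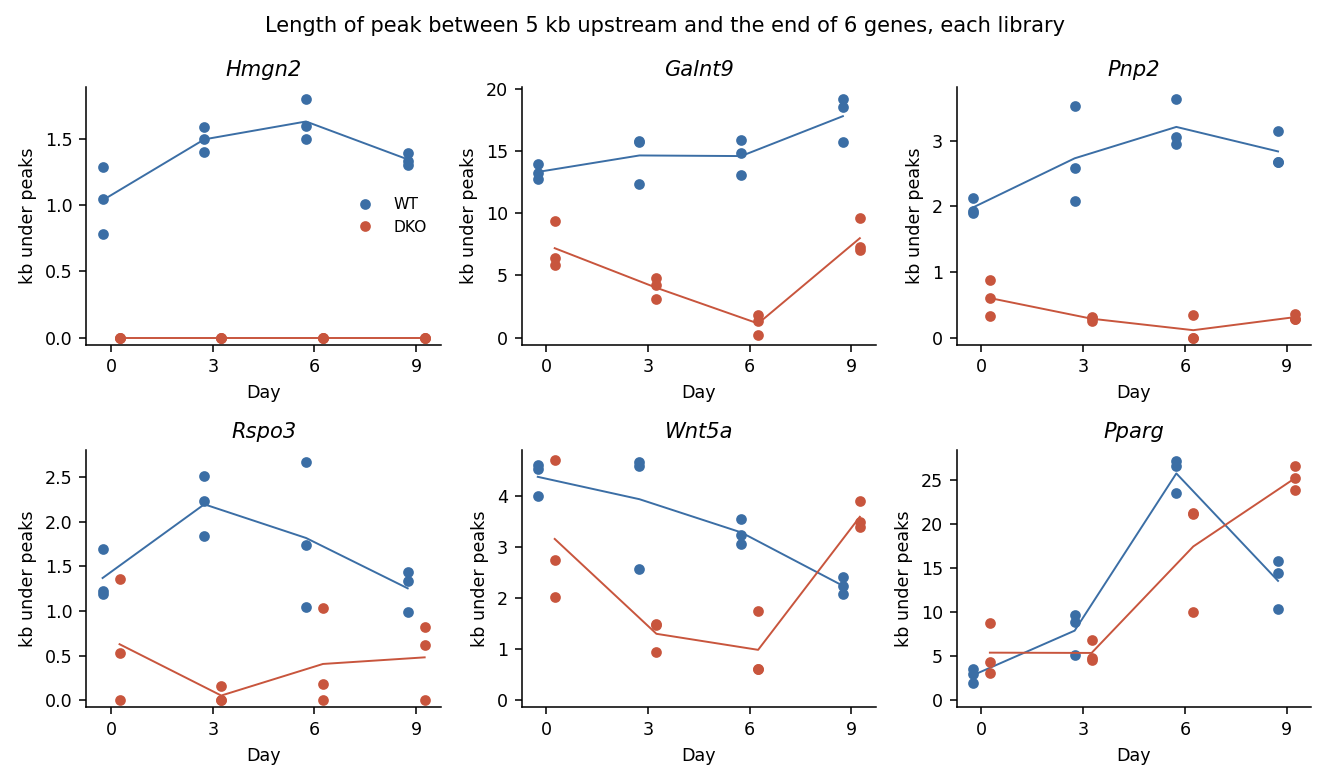
Length under peaks (kb) of Hmgn2, Galnt9, Pnp2, Rspo3, Wnt5a and Pparg in each library by day (0, 3, 6 and 9) and genotype, with lines through the group means. Hmgn2 is at 0 in DKO on every day, Galnt9 and Pnp2 are lower in DKO on every day, and the order of the genotypes at Wnt5a is turned between day 3 and day 9. Pparg overlaps between genotypes at day 3 and is higher in DKO at day 9.

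Gene classes were described by 2 measures: how many members had DKO values below or above every WT value in kb, beside 11.8% and 0.899% over all genes, and the summit reads at the gene's start, which were lower in DKO for 4702 of 10258 genes with a shared start region (45.8%, median log2 difference 0.02). At gene starts 0.117% of 10260 genes passed the reads fit, and no member of the classes below was among them. Of the kb calls, Rspo3, Pnp2 and Hmgn2 were members.

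The values of the core adipogenic factors overlapped in the 6 libraries. Pparg, the receptor that rosiglitazone activates, held 8.86, 9.71 and 5.08 kb in WT and 4.51, 6.77 and 4.79 kb in DKO, with start reads of 29, 31 and 13 against 31, 23 and 27. Cebpa held 3.80, 3.81 and 3.06 against 2.75, 2.90 and 3.45 kb, and Cebpb, the early factor of induction, 3.22, 3.35 and 2.61 against 2.54, 3.26 and 2.39 kb. The overlap at Pparg and Cebpa rested on the shallow WT replicate 3, without which DKO lay below by mean differences of -3.93 and -0.77 kb, while both overlapped with equal numbers of top peaks. Of the 24 adipogenic transcription factors tested, 3 lay below every WT value (12.5%), Ebf2, Ebf3 and Zfp423, and 0 above. Zfp423, a zinc finger factor that commits precursors to white fat, held 2.26, 2.64 and 1.6 kb in WT and 0.223, 0.953 and 0.204 kb in DKO. Start reads were lower in 10 of 19 factors, close to the share of all genes.

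Genes of lipid metabolism were taken in 5 lists, from uptake to the respiratory chain. Of 22 lipid droplet and lipid uptake genes tested, 0 lay below and 0 above, among them Fabp4 with 2.74, 3.18 and 0.929 kb against 1.37, 2.93 and 1.76 kb and Lpl with 8.28, 9.51 and 6.39 against 4.58, 7.17 and 4.83 kb. Of 21 lipogenesis and sterol genes 1 lay below, Acacb, which makes malonyl-CoA at mitochondria. Of 13 lipolysis genes 1 lay below, Prkar1a, a regulatory subunit of protein kinase A. In the 23 fatty acid oxidation genes 4 lay below, Hadh, Etfb, Acaa2 and Acaa1a, and 1 above, Acadm, with 1.48, 1.43 and 1.46 kb in WT and 1.97, 1.84 and 1.61 kb in DKO. Start reads were lower in only 7 of 21 of these and in 7 of 27 respiratory chain genes, below the 45.8% of all genes, with median log2 differences of 0.15 and 0.03.

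Of 35 brown and beige genes 19 held enough for a test, and 5 lay below (26.3%) and 0 above. They were Ppargc1a, the coactivator of mitochondrial genes, Prdm16 and Ebf2, regulators of brown fat identity, Dio2, which activates thyroid hormone, and Ppara, a receptor of fatty acids. Ppargc1a held 1.38, 1.43 and 1.06 kb in WT and 0.423, 0.597 and 0.978 kb in DKO, and Ebf2 16.7, 17.7 and 10.3 against 7.76, 8.83 and 6.94 kb. None of these passed the limma fit, and start reads were lower in 7 of 11 genes. With equal numbers of top peaks, 4 of the 19 lay below (21.1%) beside 13.6% of all genes.

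Of 11 white adipocyte genes tested, 4 lay below (36.4%) and 0 above: Galnt9, Pnp2, Hoxc8 and Hoxc9, the last a pair of position genes of inguinal fat. Galnt9 and Pnp2 are in this list because the study named them from these samples, so the count is not independent of the data. Hoxc8 held 7.16, 7.45 and 6.78 kb in WT and 5.80, 6.69 and 6.71 kb in DKO and overlapped with equal numbers of peaks. Other genes that the study named, Slc6a6, Adamts5, Anxa3, Col1a2, Col3a1 and Mmp2, overlapped between genotypes in the 6 libraries. Without WT replicate 3 all but Slc6a6 had DKO below WT, and with equal numbers of top peaks Mmp2 and Col1a2 did.

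Among the lists with over 10 members tested, the matrix genes had the lowest median in kb. Of 29 collagen and matrix genes 6 lay below (20.7%), Col6a2, Col16a1, Lox, Tnc, Eln and Nid1, and all 29 had a lower mean in DKO, with a median log2 difference of -0.56 beside -0.19. Without WT replicate 3 it was 29 of 29 below, beside 57.4% of all genes. Nid1, a basement membrane protein, held 12.2, 14.4 and 7.46 kb in WT and 4.10, 6.16 and 5.66 kb in DKO. Start reads were lower in 18 of 23 matrix genes, with a median log2 difference of -0.14 beside 0.02. Col16a1 held 2.66, 3.12 and 2.37 against 1.48, 1.65 and 1.75 kb while its start reads differed by 0.24, so the kb and the start of a gene did not always go together.

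Of 21 matrix proteases and inhibitors 4 lay below, Mmp3, a stromelysin, Adamts1, Adamts12 and Plat, the tissue plasminogen activator. Mmp3 held 3.17, 2.90 and 1.72 kb in WT and 0.579, 1.33 and 0.702 kb in DKO and overlapped with equal numbers of peaks. Of 26 Wnt pathway genes 5 lay below (19.2%), Wnt5a, Wnt10b, Fzd4, Rspo3 and Ror2, that is 2 ligands, a receptor, a ligand enhancer and the co-receptor of Wnt5a. Of 28 progenitor markers 3 lay below, Pdgfrb, Clec3b and Meox1, and 1 above, Cd34, at 0.344, 0.422 and 0.269 kb in DKO against 0, 0 and 0.234 kb in WT. With equal numbers of top peaks Cd34 and Meox1 overlapped. Of 25 TGF-beta and BMP genes 2 lay below, Tgfb2 and Smad2, of 17 insulin and IGF genes 2, Irs1 and Akt2, of 16 anti-adipogenic regulators 2, Wnt10b and Nr2f2, and of 20 contractile genes 0.

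Targets of the early signals of the medium came next. Of 20 glucocorticoid targets tested 1 lay below, Mt2, a metallothionein, and of 17 cAMP targets 3, Nr4a3, Ppargc1a and Dio2. Of 12 AP-1 and ATF3 genes 0 lay below or above, with Fosl2 at 19.3, 19.6 and 16 kb in WT and 14.2, 16.4 and 15.5 kb in DKO and Jun at 5.39, 5.12 and 4.36 against 4.59, 4.82 and 4.62 kb. Start reads of the AP-1 genes were higher in DKO in 8 of 10, with a median log2 difference of 0.27, and none passed the fit. Of 27 cell cycle genes 1 lay below, Mcm5, and of 24 inflammatory genes 4, Ccl11, Cxcl1, Cxcl5 and Lif. Of 16 housekeeping genes 1 lay below, Rpl13a, of 27 respiratory chain genes 1, Uqcrc1.

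The class counts were also taken with equal numbers of top peaks and without WT replicate 3. With equal numbers of top peaks, beside 13.6% of all genes, 7 of 29 matrix genes lay below every WT value, 6 of 26 Wnt genes, 5 of 21 matrix proteases, 5 of 24 inflammatory genes, 5 of 17 insulin and IGF genes, 4 of 19 brown genes, 4 of 23 fatty acid oxidation genes, 4 of 24 adipogenic factors, 4 of 28 progenitor markers, 4 of 25 TGF-beta and BMP genes, 3 of 11 white genes, 3 of 16 anti-adipogenic regulators, 3 of 17 cAMP targets, 3 of 21 lipogenesis genes, 2 of 20 glucocorticoid targets, 2 of 13 lipolysis genes and 0 or 1 in each other list. Without WT replicate 3, beside 57.4% of all genes, the share below ran, over lists with at least 10 genes tested, from 2 of 10 immune markers and 36.4% of lipid droplet genes over 43.5% of fatty acid oxidation and 69.2% of Wnt genes to 90.9% of white genes and all 29 matrix genes. No difference between lists was tested.

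Of the marker lists of other cells, the immune one had more than 2 members tested and a median above 0. Its 10 markers had a median log2 kb difference of 0.23, against -0.19 over all genes, and start reads higher in DKO in 7 of 8, with 0 of them past the fit. In kb 0 of the 10 were without overlap in the full lists, whereas 2 lay above every WT value with equal numbers of top peaks (beside 2.53% of all genes) and 4 with the peaks ranked by summit reads (beside 308 of 13018 genes). Of 4 endothelial markers 1 lay below, Vwf, and of the 2 tested each for mesothelial, mural and Schwann cells and the 1 for skeletal muscle, 0. The part of immune cells in any difference between the genotypes was not tested.

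The sequence under the summits differed little between the sets. Motifs were searched on both strands in 201 bases centred on the strongest summit. The AP-1 motif, TGACTCA or TGAGTCA, was in 3.16% of all regions, 2.33% of those called in 6 of 6 libraries, 3.29% of WT-only and 4.05% of DKO-only regions. The C/EBP motif, TTGCGCAA, TTGCACAA or TTGCATCA, was in 0.914%, 0.752%, 1.08% and 0%, the last being 0 of 321 regions, and the TEAD motif, GGAATG, in 11.3%, 10.5%, 12.2% and 12.8%. The EBF palindrome was in 0.636%, 0.733%, 0.692% and 0.312%. A match describes the letters only and is no sign that a factor was bound.

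The position of the sets relative to the targeted genes was counted last. Within 5 Mb of Hmgn1 lay 527 of the 119248 regions (0.442%), 7 of the 2312 WT-only regions (0.303%) and 6 of the 321 DKO-only regions (1.87%). Within 5 Mb of Hmgn2 lay 1127 regions (0.945%), 23 WT-only regions (0.995%) and 3 DKO-only regions (0.935%). None of the 28 regions past the reads fit lay in either window. The stretches on chromosomes 5, 7, 17 and 19 lie on other chromosomes than Hmgn1 (chromosome 16) and Hmgn2 (chromosome 4).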

How the data were processed

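H3K27ac was measured by ChIP-seq in 3 WT and 3 DKO libraries of day 3, with libraries of days 0, 6 and 9 used only to follow regions chosen at day 3. According to the study's methods and the submitters' processing notes, the authors trimmed 75 bp single reads with cutadapt 1.18, aligned them to mm10 with BWA and called narrow peaks in each library with MACS2 2.1.1.20160309, without pooling replicates. Each deposited list holds, per peak, a fold enrichment ratio at its summit and 2 significance columns, −log10 p and −log10 q. The lists carry no read counts. Fold and −log10 p together follow from a whole number of summit reads and a local background. Whole reads (within 0.05) were recovered for 99.97% or more of the peaks of each day 3 list. With −log10 p shifted by 0.05 this was 0.065 to 0.423%, which is the result of 1 fixed shift and no measure of chance. Total depth is not known.

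Regions were joined from 1 bp of overlap. Promoters are within 1 kb of a GENCODE M21 transcript start, and gene kb runs from 5 kb upstream to the gene's end. limma 3.58.1 in R 4.3.3 was fitted with trend over all features, adjusted with the Benjamini-Hochberg method at 0.05, after a check on simulated data. Library values were compared by exact permutation. The members, gene lists and named-gene rules were chosen with earlier results of these data known. Named genes were Hmgn1 and Hmgn2, genes the study names for browning, the core adipogenic genes, up to 3 members per list and direction without overlap, and the 10 strongest regions per direction. All 28 regions past the reads fit, their genes, and the 3 stretches were chosen after their values were seen. The use of reads in place of the fold was planned; its fits by setting, the ranking of peaks by reads and the gene means of reads were added after seeing the data.

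Labels gave groups and replicate numbers. Deviations of same-numbered WT and DKO libraries correlated at -0.00095 to 0.031 in fold and summit reads. This gave no sign of pairing by number in those measures and cannot exclude it. Alternatives were peak number, −log10 q of at least 5, summit windows of 250 bp, normalization, a 50% overlap, a replicate block and leaving out each library.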

Additional observations from a re-analysis of the deposited data

How the results depend on the processing

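Taking 64777 top peaks per library by −log10 q left 1442 WT-only and 738 DKO-only regions, 7 genes lower in kb and 330 genes with every DKO value above every WT value. Ranked by summit reads, an alternative added after seeing the data, these were 1175, 534, 7 and 308. Taking 20000 top peaks left 401 WT-only regions, 456 lower and 457 higher by fold, 1 lower and 6 higher by reads, 3 genes higher in kb and 297 genes above. Without normalization the fold gave 3022 lower and 225 higher and the reads 0 and 0, and summit reads in place of the fold gave 9 and 19. Median centring gave 87 genes lower and 14 higher in kb, a split that moved with the centring. With the replicate block the gene fit gave 12 lower. Whether the replicate numbers pair the libraries in kb was not checked.

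Leaving out 1 library at a time gave 2808 to 9109 WT-only and 380 to 1236 DKO-only regions, 367 to 622 lower and 375 to 625 higher by fold, 2 to 7 lower and 8 to 15 higher by reads, and 0 to 683 genes lower and 0 to 1 higher in kb. Genes below every WT value were then 1637 to 7476 and genes above 124 to 414. The upper ends of the WT-only, kb-lower and below-WT ranges came without WT replicate 3, the lowest counts by fold without WT replicate 1 and the lowest by reads without DKO replicate 3. The difference in median fold per library ran from -0.314 to 0.0578 in these fits, turning without WT replicate 3, and was -0.77 at 64777 and -1.85 at 20000 top peaks, where the groups did not overlap (exact p = 0.1, the smallest possible). The day 0 difference of the WT-only share, -0.98 points, was 1.26 without WT replicate 3 and 5.73 at equal top peaks. With DKO day 0 replicate 2, the library with wide peaks, left out, these values were -5.59, -3.74 and -5.31 points. The day 9 difference of 0.26 points was -3.93 at equal top peaks. Of the values of single genes and regions at these settings, 229 kept their side of the threshold, 126 were no longer past it, 5 newly passed it and 0 turned. The cause was not tested for any of these.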
